A study of Homo sapiens with 6 samples.

Results

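The megakaryocyte and platelet genes examined here were ITGA2B and 8 further genes that mark this lineage: ITGB3, GP1BA, GP9, PF4, PPBP, VWF, SELP and THBS1. ITGA2B was chosen by its fall in ARID1A-deficient NB4 cells, so its difference from the control is given as a description and supports nothing. The other 8 genes were named as its partners in the platelet, and the question was whether they moved with it and which ITGA2B transcripts carried the fall. These 9 genes are among 52992 genes to which the transcript tables could be summed, and 4 of the 9 (ITGA2B, GP1BA, VWF and THBS1) passed the low-count filter that 18514 genes passed.

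NB4 is an established acute promyelocytic leukemia line. RNA was sequenced from 6 libraries, 2 of cells carrying a LacZ single guide RNA (sgRNA), 2 carrying ARID1A sgRNA sg1 and 2 carrying ARID1A sgRNA sg5. All 6 came from cells that expressed Cas9 from a lentivirus, were sorted as mCherry+GFP+ populations after transduction with the sgRNA vector, and received 1 µg/ml doxycycline for 7 days to switch the sgRNA on. The LacZ sgRNA targets a bacterial gene, so the LacZ cells, labelled wild type (WT), shared the Cas9, the vector and the doxycycline with the sg1 and sg5 cells, labelled ARID1A-deficient. By the study's methods the cells were then kept without doxycycline for a further period before RNA was taken. The sorted cells are populations that can hold edited and unedited alleles, and no label says that replicates came from separate cultures, so p-values measure only the spread between these samples, which may be technical. In bulk RNA, fewer cells that express a gene and less RNA per cell cannot be told apart.

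Megakaryocytes are the bone marrow cells that release platelets. ITGA2B (CD41, integrin alpha IIb) pairs with ITGB3 (integrin beta 3) to form the platelet fibrinogen receptor, and GP1BA and GP9 belong to the GPIb-IX-V complex, which binds von Willebrand factor (VWF) at a damaged vessel wall. PF4 and PPBP are chemokines stored in platelet alpha granules, SELP (P-selectin) is a granule membrane protein exposed on activation, and VWF and THBS1 (thrombospondin 1) are adhesive proteins released from the same granules.

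The sequences that separate the ITGA2B transcripts are shown first, because the fall was divided over them. ITGA2B lies on the minus strand at chr17:44372180-44389505 (GRCh38, GENCODE 29). ITGA2B-201 is the full-length coding transcript of 3333 bases, and ITGA2B-206 (1170 bases) and ITGA2B-208 (3189 bases) are annotated as retained-intron transcripts. Each line below gives 40 bases across the end of an exon, 5′ to 3′ in the direction of the gene, with lower case for the last 20 bases of the exon and capitals for the 20 bases that follow, which are the next exon in ITGA2B-201 and the retained intron in the other transcripts.
ITGA2B-201, end of exon 13: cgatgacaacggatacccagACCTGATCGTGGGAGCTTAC
ITGA2B-206, same exon end, read into the intron: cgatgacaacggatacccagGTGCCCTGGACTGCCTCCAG
ITGA2B-201, end of exon 26: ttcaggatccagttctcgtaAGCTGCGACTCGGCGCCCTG
ITGA2B-208, same exon end, read into the intron: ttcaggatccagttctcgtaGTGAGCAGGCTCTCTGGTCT
The exon ends lie at chr17:44380879-44380898 and chr17:44375591-44375610, both inside coding exons. The spliced run at exon 13 occurs in 3 annotated transcripts (ITGA2B-201, ITGA2B-208 and ITGA2B-210), whereas each retained run occurs in 1. ITGA2B-210 had no match in the tables and was not analysed here.

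Windows of 250 bases directly upstream of the RefSeq start (GRCh38.p14) were read for 5 of the 9 genes: ITGA2B, GP9, PPBP, SELP and THBS1. ITGB3, GP1BA, PF4 and VWF had no entry. The ITGA2B window is shown because ITGA2B carries the fall, and the THBS1 window because THBS1 passed the count filter without passing the test. Capitals mark matches on either strand to a GATA set (AGATAA or AGATAG or TGATAA or TGATAG) or to an ETS core (AGGAAG, or CTTCCT where it lies on the opposite strand), letters that were chosen after the ITGA2B window had been looked at.
ITGA2B, chr17:44389650-44389899, minus strand: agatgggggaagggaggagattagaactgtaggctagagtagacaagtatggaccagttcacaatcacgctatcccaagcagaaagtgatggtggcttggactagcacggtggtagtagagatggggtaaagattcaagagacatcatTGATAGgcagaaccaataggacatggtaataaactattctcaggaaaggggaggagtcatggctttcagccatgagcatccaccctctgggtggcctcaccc
THBS1, chr15:39580829-39581078, plus strand: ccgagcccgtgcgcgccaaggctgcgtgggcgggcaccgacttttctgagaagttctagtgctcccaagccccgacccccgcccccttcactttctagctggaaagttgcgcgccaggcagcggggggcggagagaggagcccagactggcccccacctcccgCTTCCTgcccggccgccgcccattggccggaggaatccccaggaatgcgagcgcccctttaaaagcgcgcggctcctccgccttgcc
The ITGA2B window held 1 GATA match, TGATAG on the strand of the gene, 102 to 97 bases upstream of the RefSeq start, and no AGGAAG match. The RefSeq start lies 144 bases upstream of the start of ITGA2B-201 in GENCODE 29, and the bases between these starts were not searched. The matches given for ITGA2B therefore do not cover the sequence next to the start of ITGA2B-201. THBS1 held 1 ETS match and no GATA match, and GP9 likewise. SELP held 1 of each, and PPBP held both, with an AGATAA that overlaps one of its 3 ETS matches. Over 35116 promoter windows of the same length, 22.3% held the GATA set, 28.7% the ETS core and 6.6% both, and a match describes letters only.

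The libraries held 46131178 to 54843745 estimated counts. On the first principal component of log2 CPM (counts scaled to TMM library sizes), which took 34.4% of the variance, sg1 replicate 1 (34.3) and sg5 replicate 2 (46.8) stood apart from the other 4 libraries (-30.3 to -11.3). ARID1A RNA stood at 155 and 191 CPM with the LacZ sgRNA, 211 and 191 CPM with sg1, and 124 and 145 CPM with sg5, and did not pass the test in sg1 (adjusted p = 0.993) or sg5 (adjusted p = 0.661, edgeR), so the RNA of the targeted gene does not check the labels. The promyelocyte marker MPO averaged 7341 TPM (a unit scaled to transcript length and library size) in LacZ, whereas ELANE averaged 0.278 TPM.

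ITGA2B was the only one of the 9 genes below the false discovery rate (FDR) of 0.1 in sg1 against LacZ, in sg5 against LacZ and in both guides joined against LacZ, by edgeR's quasi-likelihood test and by DESeq2. By edgeR, 0.027% of the 18514 genes tested were called lower in sg1 and 0.0108% higher, 0.0648% were called lower in sg5 and 0.0324% higher, and 0.124% were called lower in the joined comparison and 0.0432% higher. In the joined comparison 7.21% of all genes tested had an unadjusted p under 0.05 by edgeR (4.32% lower and 2.89% higher), and DESeq2 called 1.43% (0.745% lower and 0.681% higher). ITGA2B chose itself into these counts, and nothing is read from its own call. Between sg1 and sg5, where 0.0054% of all genes were called, 0 of the 4 members tested were called by edgeR, 0 had an unadjusted p under 0.05, and 0 were called by DESeq2. All 4 ARID1A-deficient libraries lay below both LacZ libraries in CPM for ITGA2B, VWF and PPBP, an order that 10.4% of all tested genes showed.

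**Figure D1:**
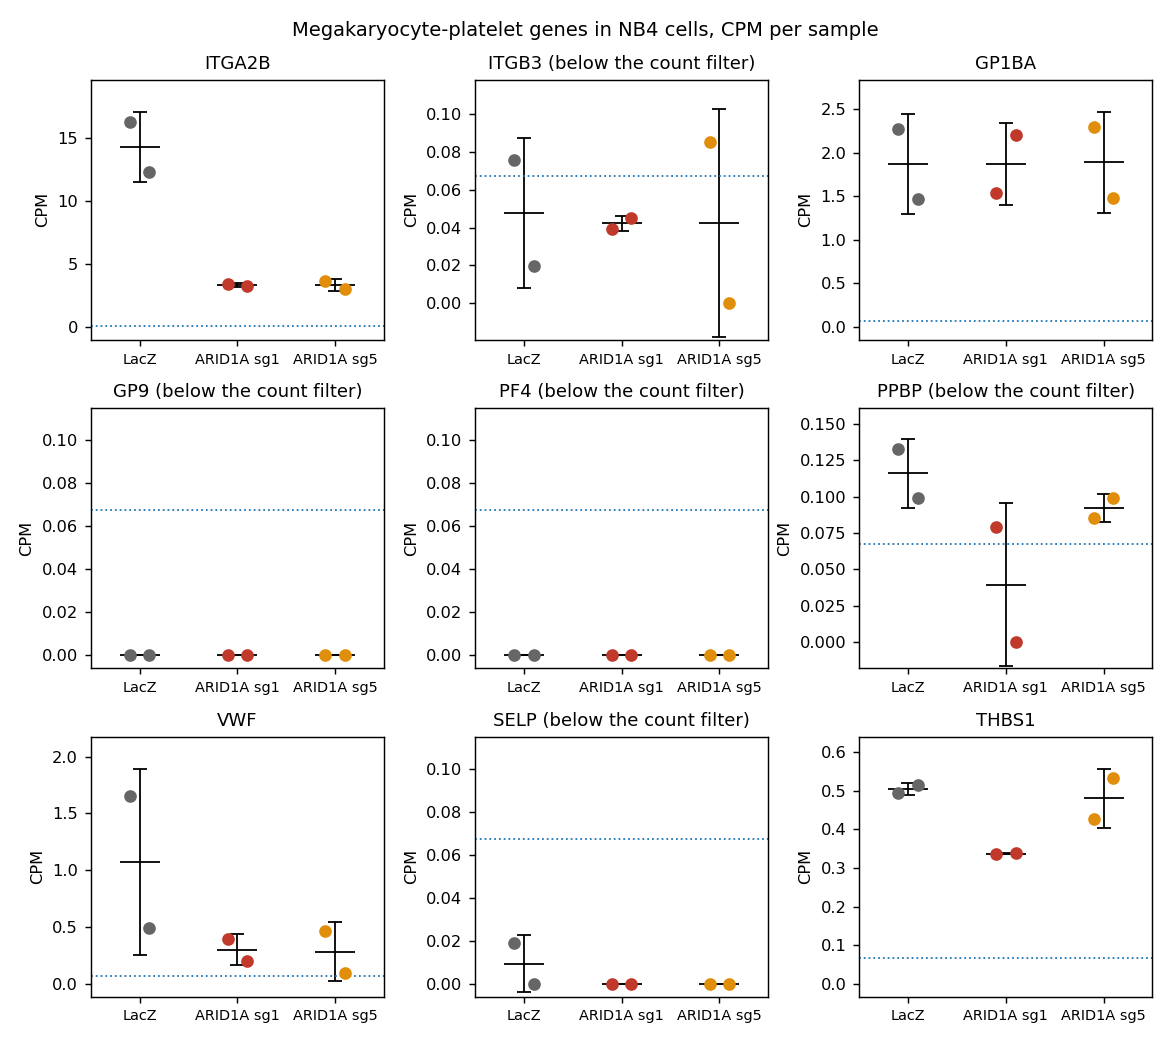
CPM of the 9 genes (vertical axis, linear, a scale of its own in each panel) in each of the 6 libraries, with black marks at the group mean and bars of 1 SD (n = 2 per group) and a dotted line at 0.0675 CPM, the largest level that a count of 0 allows. The 2 LacZ libraries stood at 12.3 and 16.3 CPM for ITGA2B and the 4 ARID1A-deficient libraries between 2.99 and 3.67 CPM, whereas the groups overlapped for GP1BA and GP9 and PF4 had no counts.

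ITGA2B, the alpha subunit of the fibrinogen receptor, was counted at 856.1 and 621.8 in the LacZ libraries, at 173.0 and 142.8 in those of sg1 and at 172.1 and 150.9 in those of sg5 (estimated counts). Both LacZ libraries were above all 4 ARID1A-deficient libraries, and the sg1 and sg5 values interleaved. The LacZ mean was 14.3 ± 2.77 CPM, against means of 3.32 ± 0.144 CPM for sg1 and 3.33 ± 0.480 CPM for sg5 (SD, n = 2 each). This is a log2 difference of -2.11 (SE 0.22) in sg1, -2.10 (SE 0.22) in sg5 and -2.10 (SE 0.18) for both guides joined, or 4.30-fold lower. The difference between sg1 and sg5 was -0.0017 on the log2 scale (SE 0.22). ITGA2B ranked 38 from the lowest of the 18514 joined log2 differences, and 3 genes called lower had a lower value.

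The call of ITGA2B, though not the size of its difference, changed when single libraries were left out, which leaves 1 group with 1 library whose spread is taken from the other groups. Without LacZ replicate 1 the joined log2 difference was -1.89 and the gene was called in 0 of the 3 comparisons, and without LacZ replicate 2 it was -2.29 and the gene was called in the joined comparison alone. Without sg1 replicate 1 the sg1 difference was -2.16 and was no longer called.

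ITGB3, the beta subunit that ITGA2B needs to reach the cell surface, was near the floor of detection. It had 4, 1, 2.2, 2, 4 and 0 estimated counts in LacZ replicates 1 and 2, sg1 replicates 1 and 2 and sg5 replicates 1 and 2. The highest value was shared by a LacZ and an sg5 library, the groups overlapped, and the gene was not tested. A count of 0 allows up to 3 counts, which is 0.057 to 0.0675 CPM in these libraries, counting error only, so a difference in ITGB3 was not detectable at this depth.

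Among the 23 other integrin alpha and beta subunits, 21 were tested and 1, ITGA7, a laminin-binding alpha subunit of muscle, was called lower, in the joined comparison alone. Its joined log2 difference was -0.996 (SE 0.15, adjusted p = 0.0961, edgeR), from a mean of 8.11 TPM in LacZ to 4.71 TPM in ARID1A-deficient cells. ITGB2 (-0.20), ITGA5 (-0.02), ITGA4 (0.06) and ITGB1 (-0.07), the 4 of highest TPM, did not pass, and the median over the 21 was -0.05 beside -0.01 over all genes tested. DESeq2 called ITGA7 and ITGA3 lower in all 3 comparisons with LacZ. In the joined comparison it called 0.745% of all genes lower. ITGAV, the other alpha subunit that pairs with ITGB3, was named for that role after its value was seen, at 6.73 TPM in LacZ with a joined log2 difference of -0.02 (adjusted p = 0.976, edgeR).

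GP1BA, the subunit of GPIb that binds VWF, did not differ beyond the spread of its replicates. Its counts were 120 and 74 with the LacZ sgRNA, 78 and 98 with sg1, and 108 and 75 with sg5. Scaled to library size, LacZ stood at 2.28 and 1.47 CPM and the ARID1A-deficient libraries between 1.48 and 2.30 CPM, so the groups overlapped. The joined log2 difference was 0.0049 (SE 0.30, adjusted p = 0.998, edgeR). GP1BA lies at chr17:4932297-4935030, and the sign of its difference, near 0, turned under several settings.

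The rest of the GPIb-IX-V complex was at or near 0 counts or uneven between libraries. GP9 (chr3:129060767-129062406) had 0 counts in all 6 libraries, which allows at most 0.057 to 0.0675 CPM per library. GP1BB and GP5, the other two subunits, were named for their place in the complex after their values were seen. GP5 had 0 counts in all 6 libraries. GP1BB was counted at 281.5 and 380.6 with the LacZ sgRNA, at 441.2 and 131.7 with sg1 and at 28.1 and 0 with sg5, so its sg1 values lay on both sides of LacZ and its sg5 values below. The log2 difference of GP1BB was -0.14 in sg1 (adjusted p = 0.995), -4.46 in sg5 (adjusted p = 0.591) and -2.30 joined (adjusted p = 0.687), by edgeR. It was called lower in all 3 comparisons with LacZ when both libraries that stood apart were left out, a fit with 1 library each of sg1 and sg5. GP1BB shares sequence with longer read-through transcripts of its neighbour, so its counts depend on how the authors' program divided reads and are uncertain.

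The granule chemokines were nearly silent. PF4 (chr4:73981077-73982124) had 0 counts in every library, and PF4V1, its near-identical copy, had 1 count in sg5 replicate 2 and 0 elsewhere, so both together held 1 count. PPBP (chr4:73987038-73988197) had 7 and 5 counts with the LacZ sgRNA, 4 and 0 with sg1, and 4 and 5 with sg5. Its 4 ARID1A-deficient values lay below both LacZ values in CPM, by 0.0992 CPM in LacZ replicate 2 against 0.0989 CPM in sg5 replicate 2, a gap far under 1 count. PPBP did not pass the count filter and was not tested.

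VWF, the ligand of GPIb, was the member closest to ITGA2B in the size of its joined difference, at low counts. LacZ replicates 1 and 2 held 87 and 25 counts, the sg1 replicates 20 and 9, and the sg5 replicates 22 and 5. All 4 ARID1A-deficient libraries were below both LacZ libraries in CPM, with 0.0989 to 0.469 CPM against 0.496 and 1.65 CPM, but LacZ replicate 2 lay nearer to the ARID1A-deficient libraries than to LacZ replicate 1. The log2 difference was -1.83 (SE 0.76, adjusted p = 0.993) in sg1, -1.93 (SE 0.76, adjusted p = 0.661) in sg5 and -1.88 (SE 0.62, adjusted p = 0.518) for both guides joined, by edgeR, and the unadjusted joined p was 0.0152. VWF therefore did not pass the test, although the fitted value was near that of ITGA2B.

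The value of VWF rested on LacZ replicate 1, without which the joined log2 difference was -0.76 (adjusted p = 0.993, edgeR), within a range of -2.61 to -0.76 over the 6 libraries left out in turn. Without both libraries that stood apart, which were picked on the principal component and leave 1 library each of sg1 and sg5, so that LacZ alone has replicates, VWF was called in sg1 and in the joined comparison (adjusted p = 0.00504 and 0.00197, edgeR), and with no low-count filter it was called in all 3, with a joined adjusted p of 9.2e-05. Over its other settings the joined adjusted p lay between 0.138 and 0.993. With no low-count filter, 701 of 32983 genes were called in the joined comparison, where the main fit called 31 of 18514. VWF is also made by endothelial cells. Of 10 endothelial markers 9 matched, PECAM1 being unmatched, and KDR and ROBO4 had 0 counts in all libraries. Their summed level was 8.80 and 10.1 TPM with the LacZ sgRNA, 7.33 and 7.77 TPM with sg1, and 6.75 and 5.99 TPM with sg5. Of the 5 tested, 0 were called by edgeR, 1 had an unadjusted joined p under 0.05 and 1, TIE1, was called lower by DESeq2. Over all genes 7.21% had such a p and DESeq2 called 0.745% lower. The part of the endothelial markers in the VWF values was not tested.

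SELP, the granule membrane receptor, had 1 count in LacZ replicate 1 and 0 in the other 5 libraries. For THBS1 the LacZ replicates held 26 and 26.2 counts, the sg1 replicates 17.1 and 15.5, and the sg5 replicates 20.4 and 27.1. Both sg1 libraries were below both LacZ libraries, whereas sg5 replicate 2 was above them. The log2 difference of THBS1 was -0.58 in sg1 (SE 0.40, adjusted p = 0.993), -0.07 in sg5 (SE 0.39, adjusted p = 0.973) and -0.32 for both guides joined (SE 0.33, adjusted p = 0.825), by edgeR. When an offset for the mean length of the transcripts was added, the sg5 value turned to 0.54 and the sg1 value moved to -1.72. The difference between sg1 and sg5 was then -2.26 in place of -0.51, and none was called. That mean length weights transcripts by TPM. THBS1-205, a retained-intron transcript of 431 bases, had 0 and 1 counts in LacZ, 0 in sg1 and 1.7 and 5.3 in sg5.

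Levels were compared between the genes per length, in TPM. In LacZ the order was ITGA2B (8.83 ± 0.605), GP1BA (1.01 ± 0.323), THBS1 (0.329 ± 0.249), PPBP (0.270 ± 0.0578), VWF (0.156 ± 0.120), ITGB3 (0.0404 ± 0.0338) and SELP (0.0103 ± 0.0145), with GP9 and PF4 at 0 (SD, n = 2). ITGA2B and GP1BA stood apart from each other and from the rest by more than their spread, whereas from THBS1 downward the neighbours in this order did not, and SELP stood above GP9 and PF4 by 1 count. The coding transcript THBS1-201 averaged 0.0719 ± 0.0100 TPM in LacZ, and the rest of the THBS1 value came from retained-intron transcripts. Each of these held at most 3 counts in a LacZ library. In the 4 ARID1A-deficient libraries ITGA2B stood at 1.95 ± 0.178 TPM and was still the highest of the 9. GP1BA stood below it, at 0.990 ± 0.243 TPM. Among all genes tested, 53.7% had a lower mean TPM than ITGA2B in LacZ and 34.7% in ARID1A-deficient cells.

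The fall of ITGA2B was then divided over its transcripts. The tables held 9 ITGA2B transcripts, 2 coding and 7 with a retained intron. ITGA2B-201, whose spliced junctions are printed above, was counted at 657.4 and 460.6 with the LacZ sgRNA, at 152.3 and 79.3 with sg1 and at 125.3 and 105.8 with sg5. Both LacZ libraries were above all 4 ARID1A-deficient libraries. The short coding transcript ITGA2B-202 had 0 counts in all 6.

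The retained-intron transcripts were lower as well. ITGA2B-206 had 93.2 and 64.2 counts in LacZ and 8.7, 16.0, 19.9 and 12.4 in the sg1 and sg5 libraries, and again the groups did not overlap. ITGA2B-208 had 85.5 and 53.1 counts in LacZ and 5.9, 39.3, 21.3 and 23.3 in the ARID1A-deficient libraries, with the highest of these, sg1 replicate 2, still under both LacZ libraries. ITGA2B-203 had 10 and 33.9 counts in LacZ against 2.1, 8.2, 4.4 and 6.6, and the other 4 retained-intron transcripts had at most 5.3 counts in any library. The log2 ratio of mean TPM, joined against LacZ, was -2.22 for ITGA2B-201, -2.38 for ITGA2B-206, -1.99 for ITGA2B-203 and -1.51 for ITGA2B-208.

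ITGA2B-201 carried 48.9% of the joined fall in TPM and the 7 retained-intron transcripts carried 51.1%. In CPM, which does not divide by length, ITGA2B-201 carried 76.7% and the retained-intron transcripts 23.3%. The share of the gene's counts held by ITGA2B-201 was 76.8% and 74.1% with the LacZ sgRNA, 88.0% and 55.5% with sg1, and 72.8% and 70.1% with sg5, so the ARID1A-deficient libraries lay on both sides of LacZ. No test was made of these shares, since the gene was chosen for its fall and the authors' program divides shared reads between transcripts by a model.

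**Figure D2:**
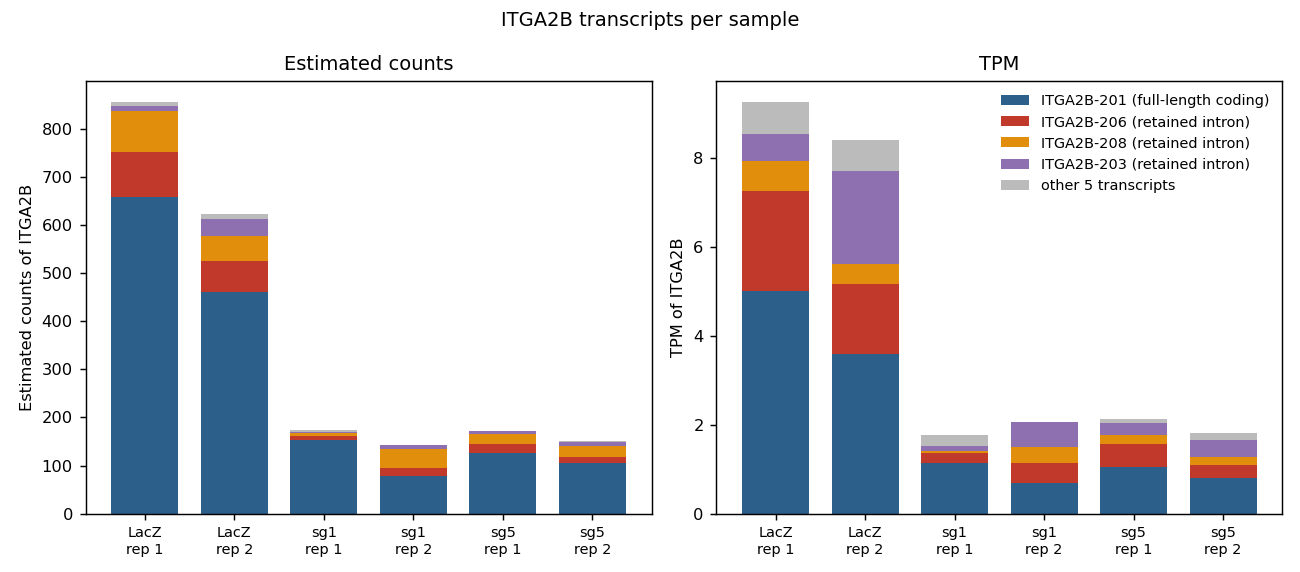
Estimated counts (left, linear axis) and TPM (right, linear axis) of ITGA2B in each of the 6 libraries, stacked by transcript from 0. ITGA2B-201 took 74.1% and 76.8% of the counts in LacZ and 55.5% to 88.0% in the ARID1A-deficient libraries, and every named transcript was lower in all 4 of these than in both LacZ libraries.

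None of the tested genes around ITGA2B passed the test. Of the 52992 genes summed here, 12 besides ITGA2B start or end within 100 kb, and 6 of these were tested. Of the 6, 0 were called against LacZ by edgeR, 0 had an unadjusted p under 0.05 and 0 were called by DESeq2. Their joined log2 differences ran from -0.53 for RUNDC3A-AS1 to 0.42 for RUNDC3A, with a median of 0.07 and a smallest adjusted p of 0.744 (edgeR). GPATCH8, the neighbour upstream, stood at 0.16, and GRN, which encodes progranulin, at 0.11. RUNDC3A and its antisense gene may share reads, as no source used here states that counting used strand. None of the 52992 genes summed here overlaps ITGA2B, and annotated genes with no matched transcript were not searched.

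**Figure D3:**
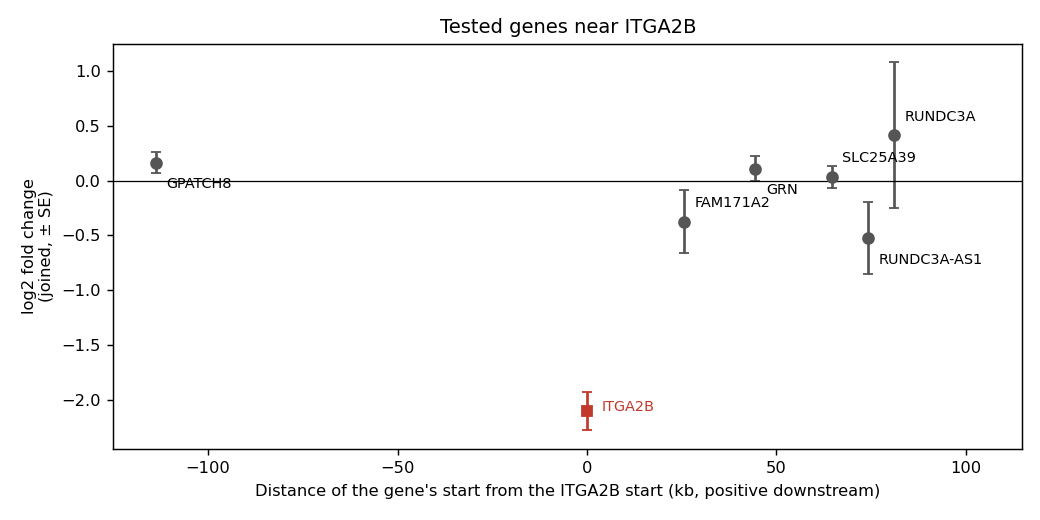
Joined log2 fold change (vertical axis, linear, bars of 1 SE) of the 6 tested neighbours and of ITGA2B against the distance of each gene's start from the ITGA2B start in kb (horizontal axis). The neighbours lay between -0.53 and 0.42, and ITGA2B at -2.10.

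Platelet surface receptors other than the 9 genes numbered 21, and 17 were tested. By edgeR 0 were called in any comparison, and in the joined comparison 4 had an unadjusted p under 0.05, all lower, of which DESeq2 called 2, F2RL3 and PEAR1. Over all genes tested, 7.21% had such a p, 4.32% lower, and DESeq2 called 1.43%. CD151 and CD9, platelet tetraspanins, stood at joined log2 differences of -0.01 and 0.12. P2RX1, the ATP-gated channel, and TBXA2R, the thromboxane receptor, stood at -0.35 and -0.20. The median over the 17 was -0.20. F2RL3 (PAR4, a thrombin receptor) at -0.91 and PEAR1 at -0.79, named because DESeq2 called them, had edgeR adjusted p of 0.417 and 0.373.

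Of 22 granule and secreted proteins 21 matched, CCL5 being unmatched, and 15 were tested. Their joined median was -0.0031, with 0 called by edgeR and 2 at an unadjusted p under 0.05, both lower. DESeq2 called 1 in the joined comparison. Over all genes tested, 7.21% had such a p, 4.32% lower, and DESeq2 called 1.43%. SPARC, a collagen-binding secreted protein, was counted at 4008 and 3764 with the LacZ sgRNA, at 2375 and 1496 with sg1 and at 1839 and 2323 with sg5. The ARID1A-deficient libraries did not overlap LacZ, and the joined log2 difference of SPARC was -0.86 (SE 0.14, adjusted p = 0.103, edgeR), just above the threshold, with a call by DESeq2 in all 3 comparisons with LacZ. SRGN, the granule proteoglycan, stood at 0.20, TIMP1 at 0.17 and VEGFA at -0.67.

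The machinery that builds and releases granules was measured in full, with 19 of 19 genes tested and a joined median of -0.03. By edgeR 0 were called and 2 had an unadjusted joined p under 0.05, both higher, and DESeq2 called 0. Over all genes tested, 7.21% had such a p, 4.32% lower and 2.89% higher, and DESeq2 called 1.43%. VAMP8, a vesicle fusion protein, stood at 0.33, STXBP2 at -0.21, NBEAL2 at -0.03 and RAB27A at 0.10. All 26 genes of integrin inside-out signaling and the cytoskeleton were tested, with a joined median of 0.0003 and 0 called by edgeR. Of the 26, 6 had an unadjusted joined p under 0.05, 3 of them lower, beside the same 7.21% and 4.32% of all genes. FERMT3 (kindlin-3), which activates integrins, stood at -0.38, RASGRP2 at -0.05, GNAI2 at 0.08 and FLNA at 0.09. DESeq2 called 1 gene of this list, APBB1IP (RIAM), which links RAP1 to talin, higher at 0.45 (adjusted p = 0.296 by edgeR).

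All 17 megakaryocyte transcription factors were tested, and 0 were called by edgeR or by DESeq2. Their joined median was -0.14, with 13 of 17 below 0 and 4 at an unadjusted p under 0.05, all lower, where 4.32% of all genes were so. In 8 of the 17 all 4 ARID1A-deficient libraries lay below both LacZ libraries, an order that 10.4% of all genes showed. LYL1 stood at -0.34, CBFB at 0.27, FLI1, an ETS factor, at -0.17 and RUNX1 at -0.15. GATA1 and GATA2, named after their values were seen because GATA factors bind the letters searched for above, stood at -1.03 (adjusted p = 0.482) and -0.47 (adjusted p = 0.444, edgeR). For GATA1 the LacZ replicates held 101 and 80 counts, the sg1 replicates 48 and 49 and the sg5 replicates 21 and 50, so the groups did not overlap but the difference did not pass the test. The part of GATA1 or GATA2 in the fall of ITGA2B was not tested.

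Over these 5 lists together 94 genes were tested, of which edgeR called 0 in any comparison with LacZ, 18 had an unadjusted joined p under 0.05 and DESeq2 called 4. Over all genes the shares were 7.21% and 1.43%, so both counts lay above the background. No test was made of that, and it supports nothing about these lists, which were chosen with earlier results of these data known. Of the 94 genes, 13 had an unadjusted joined p under 0.05 and were lower, and DESeq2 called 3 lower. Over all genes tested, 4.32% had such a p and were lower, and DESeq2 called 0.745% lower. Among the genes past each threshold, 13 of 18 and 3 of 4 were lower, beside 799 of 1334 and 138 of 264 over all genes. With both libraries that stood apart left out, edgeR called 18 of the 94 in the joined comparison, 13 of them lower, where 809 of 19255 genes (4.2%) were called, 2.58% lower and 1.62% higher. That fit holds 1 library each of sg1 and sg5, and only LacZ has replicates in it.

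**Figure D4:**
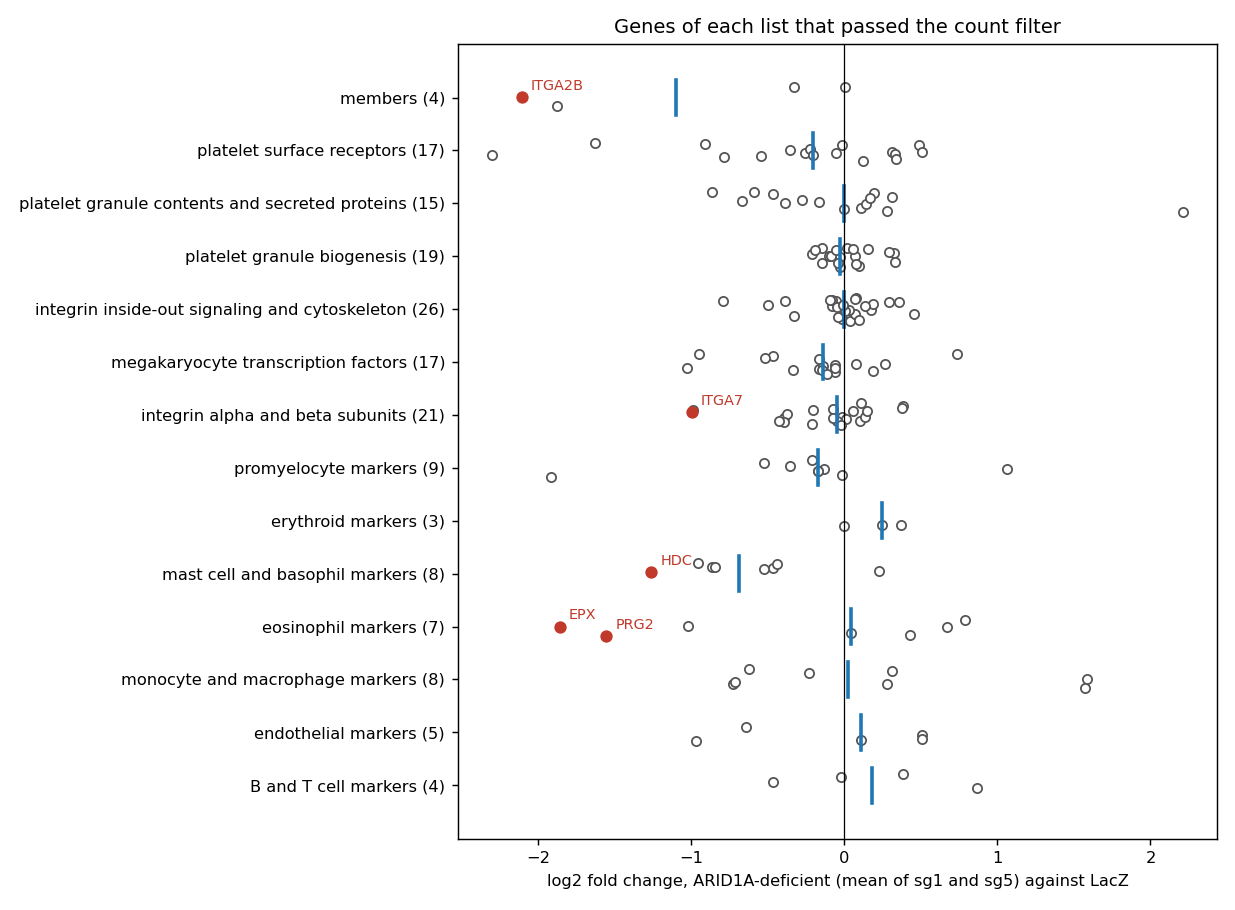
Joined log2 fold change (horizontal axis, linear) of every tested gene of the 9 genes and of each list, one point per gene with its height within a row spread only for legibility, and the number tested in parentheses. Filled red points passed FDR 0.1 in a comparison with LacZ, open points did not, and blue bars mark the median of the tested genes of a row. ITGA2B stood at -2.10 and the medians of the 5 platelet and megakaryocyte lists between -0.20 and 0.0003.

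Genes of other lineages were among those nearest to ITGA2B in pattern. The 5 tested genes whose log2 CPM pattern over the 6 libraries was nearest to that of ITGA2B, by Euclidean distance after centring, were JAG2 (distance 0.588, Pearson r = 0.970), EPX (0.599, r = 0.972), GRIK3 (0.761, r = 0.958), PRG2 (0.775, r = 0.974) and CRYBB1 (0.799, r = 0.955). VWF ranked 281 by the same distance (r = 0.809), THBS1 2844 (r = 0.524) and GP1BA 9241 (r = 0.089). These values describe 6 libraries in 3 groups, are of genes picked for their likeness, and carry no test.

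EPX and PRG2 encode granule proteins of eosinophils. PRG2 had a joined log2 difference of -1.55 (SE 0.12, adjusted p = 0.00634) and EPX one of -1.86 (SE 0.20, adjusted p = 0.0182), by edgeR. These were 2 of 7 tested genes in a list of 10 eosinophil markers, whose median was 0.04. The summed level of the list was 516 and 587 TPM in LacZ against 618 to 878 TPM in the ARID1A-deficient libraries. RNASE2 alone gave 411 and 487 TPM of that sum in LacZ and 570 to 817 TPM in the ARID1A-deficient libraries. RNASE2 (0.67) and RNASE3 (0.04) did not pass by edgeR, whereas DESeq2 called RNASE2 higher beside EPX and PRG2 lower. Of the 7, 5 had an unadjusted joined p under 0.05, 3 of them lower. Over all genes 7.21% had such a p, 4.32% lower, and DESeq2 called 1.43%. In the list 0 of the 10 were at 0 in every library, and CLC and IL5RA were at or below 0.130 TPM on average in LacZ.

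Of 12 mast cell and basophil markers, which include GATA2 and the protease CTSG of promyelocytes, 8 were tested. HDC, which makes histamine, was called lower in all 3 comparisons, with a joined log2 difference of -1.26 (SE 0.13, adjusted p = 0.0182, edgeR). In this list 6 of the 8 had an unadjusted joined p under 0.05, all lower, where 4.32% of all genes were so. DESeq2 called HDC, TPSAB1 (-0.95) and CTSG (-0.52) lower, where it called 0.745% of all genes lower. The median of the 8 was -0.68. In 6 of the 8 the ARID1A-deficient libraries all lay below LacZ, an order that 10.4% of all genes showed. The summed level was 205 and 215 TPM in LacZ against 123 to 152 TPM in the other libraries. CTSG alone gave 158 and 164 TPM of that sum in LacZ and 94.6 to 122 TPM in the other libraries. FCER1A was at 0 in all 6, and CPA3 averaged 0.164 TPM in LacZ. The part of these markers in the fall of ITGA2B was not tested.

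Erythroid genes, which share regulators with the megakaryocyte lineage, were mostly under the low-count filter. Of 15 markers 7 had 0 counts in all 6 libraries, including HBB and AHSP, 3 were tested and 0 were called by edgeR or DESeq2, with 0 at an unadjusted p under 0.05. TFRC (0.37) and EPOR (-0.0029) were those with most TPM. The remaining marker lists, of promyelocytes (9 tested, joined median -0.17), monocytes and macrophages (8 tested, 0.03) and B and T cells (4 tested, 0.18), held 0 genes called by edgeR in any comparison, with 4, 3 and 2 genes at an unadjusted joined p under 0.05, of which 3, 0 and 1 were lower. The genes that DESeq2 called in them, named for that reason, were the promyelocyte markers AZU1 (-0.35) and CTSG, lower, and LYZ (1.06), higher, the monocyte markers S100A8 (1.59) and S100A9 (1.57), higher, and among the B and T cell markers CD4 (-0.46), lower, and CD79A (0.87), higher. Over all genes 7.21% had an unadjusted joined p under 0.05 by edgeR, 4.32% lower, and DESeq2 called 1.43%. The summed level of the monocyte list was 117 and 108 TPM in LacZ against 152 to 248 TPM in the ARID1A-deficient libraries. Its part in the fall of ITGA2B was not tested.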

How the data were processed

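RNA was sequenced from 2 LacZ, 2 sg1 and 2 sg5 libraries of NB4 cells, made with an Illumina TruSeq kit. The authors deposited 1 table per library from kallisto, with estimated counts and TPM for each of 196354 transcripts. The submitters' processing notes name kallisto, DESeq2 and hg19 without versions, and the transcript set is not given in the sources used here. Transcript IDs were matched to GENCODE 29 (GRCh38), from which all gene coordinates were taken. Of the transcripts 92.62% matched, with 95.44% to 95.53% of the counts. Estimated counts were summed per gene and rounded.

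Genes were tested with edgeR 4.0.16 in R 4.3.3 (quasi-likelihood, TMM, filterByExpr with a minimum count of 10, robust, group as the only term, all 6 libraries), with p adjusted by Benjamini-Hochberg over 18514 genes and a call at FDR 0.1. The joined comparison sets the mean of sg1 and sg5 against LacZ. SE is the log2 difference divided by the square root of F. DESeq2 1.42.0 was the second tool. The biological coefficient of variation was 16.6%. The script was tested on simulated data.

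The members and the gene lists were chosen with earlier results of these data known. Named genes were the 9 members, list genes called against LacZ, and up to 4 others per list by mean TPM, with exceptions stated in the text. Alternatives changed normalisation, filter, tool, length offset, replicate block, robust estimation, FDR, the samples in the fit and each library in turn. Floors of 3 counts cover counting error only. Depth was 46131178 to 54843745 estimated counts.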

Additional observations from a re-analysis of the deposited data

Results flagged for a closer look

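Among 62 tested genes named in the lists or as members, 4 had 1 of the 4 ARID1A-deficient libraries far from the other 3, judged by the gap to the nearest library as a share of the range (Dixon's test for 4 samples). Chance gives such a gap in about 1 of 20 groups, so 4 of 62 is near that rate. No member was among them. HDC was lowest in sg5 replicate 1 (0.864 of the range), with 7.80 CPM against 8.74 to 8.89 CPM in the other 3 and 20.3 and 20.7 CPM in LacZ. S100A9 was highest in sg1 replicate 1 (0.84), with 40.3 CPM against 18.7 to 22.2 CPM. SIGLEC8 was highest in sg5 replicate 1 (0.921), with 1.24 CPM against 0.554 to 0.608 CPM. STXBP2, the one platelet granule gene among the 4, was lowest in sg5 replicate 2 (0.906), with 147 CPM against 173 to 176 CPM.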

How the results depend on the processing

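Against LacZ, ITGA2B and VWF were lower under every alternative that gave them a value, each library left out included (VWF was not tested at a mean of at least 50 counts), and ITGA2B stayed between -2.29 and -1.88 on the log2 scale. The order below is sg1, sg5, both joined, and sg1 against sg5, where the reported counts of genes called were 7, 18, 31 and 1 and those of members called 1, 1, 1 and 0. The cause of a change was not tested unless its construction shows it.

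Genes called numbered 116, 201, 264 and 5 with DESeq2, 345, 632, 701 and 86 with no low-count filter, where members called rose to 2, 2 and 2 with VWF, and 4 in sg1, 19 joined and 0 between guides at a mean of at least 50 counts. With only the groups compared they numbered 18 in sg1, 29 in sg5 and 0 between guides, without robust estimation 17 joined, at FDR 0.05 12 joined and 0 between guides, and with the length offset 2 between guides. With both libraries that stood apart left out, an alternative chosen after seeing the data, they numbered 424, 787, 809 and 215, and members called were 2 in sg1 and 2 joined. That fit has 1 library each of sg1 and sg5, so LacZ alone gives the spread, and the count between guides sets 1 library against 1.

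Replicate numbers did not pair the libraries (correlations of deviations 0.072, 0.012 and -0.21). With a replicate block genes called were 1, 1, 3 and 0, and with the length offset added 1, 1, 5 and 0; in both, members called were 0 in sg1 and 0 in sg5, ITGA2B being lost there and called when joined. With the sg5 numbers crossed, also added after seeing the data, 59, 157, 194 and 2 genes were called.

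Leaving out 1 library, where the lone library of a group is assumed to vary like the others, gave 1 to 33, 0 to 78, 3 to 193 and 0 to 8 genes called and 0 to 1 members in each comparison with LacZ. Counts against LacZ were lowest without LacZ replicate 1 (sg1 and joined) or LacZ replicate 2 (sg5), and highest without sg5 replicate 1 in all 3, and each of the 6 libraries moved at least 1 count by over 1.5 times. The loss of ITGA2B came without LacZ replicate 1, LacZ replicate 2 or, in sg1, sg1 replicate 1. ITGA2B-201 carried 76.7% of the fall and the retained-intron transcripts 23.3% in CPM in place of TPM, and 41.1% to 55.7% and 44.3% to 58.9% with 1 library left out, also added after seeing the data.

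Differences that changed sign were all uncalled. GP1BA joined was -0.00615 at a mean of at least 50 counts; in the replicate block it was 0.0403 in sg1 and 0.0266 between guides, and 0.045 and 0.0206 with the length offset; with crossed numbers -0.0191 in sg5 and -0.025 joined; and 0.234 in sg1 without the libraries that stood apart. With 1 library left out, GP1BA ran from -0.286 to 0.349 in sg1, -0.319 to 0.373 in sg5, -0.275 to 0.361 joined and -0.296 to 0.313 between guides. THBS1 in sg5 was 0.536 with the length offset and 0.618 with the block too, and ran from -0.249 to 0.0993 with 1 library left out. Between guides, ITGA2B was 0.00464 in the replicate block and ran from -0.138 to 0.133 with 1 library left out, and VWF was -0.0182 with crossed numbers, -1.20 without the libraries that stood apart, and ran from -0.625 to 1.57 with 1 library left out. THBS1 with the length offset was -1.72 in sg1 and -2.26 between guides. As a ratio of mean TPM it was -1.72 in sg1, 0.398 in sg5 and -2.12 between guides, and GP1BA was -0.0222 in sg5 and -0.0281 joined. PF4 summed with PF4V1 gave no value, as the sum was under the filter, and VWF summed with VWFP1 gave the same differences, as VWFP1 had no counts. At low counts, depth limits ITGB3, PPBP, SELP, GP9 and PF4, whose differences were not detectable.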
